A study of Equus caballus with 17 samples.

Results

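miR-675 and miR-335 are small RNAs cut from transcripts of imprinted loci, and both were followed through 4 stages of horse (Equus caballus) testis and in horse sperm. They were picked by name (eca-miR-675 and eca-miR-335 in the table, where the prefix marks the horse), as 2 of 274 annotated mature miRNAs, and each had 1 entry. Small RNA was sequenced from Infant testis (n = 3), Pre-puber testis (n = 3), Puber testis (n = 3), Adult testis (n = 4) and Sperm (n = 4), with no treatment. The labels give the tissue and the stage of each library and no age in years, breed or animal. Testis libraries are of whole tissue, so fewer cells of a type and less RNA per cell cannot be told apart. Nothing in the labels says that libraries of a stage came from separate animals. Infant 31a and 31b share a title number, as do Pre-puber 3a and 3b, and each pair may be from 1 animal. Here n counts libraries, with these pairs kept apart, and an alternative with libraries sharing a title number summed is given below.

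An imprinted gene is read mainly from the copy inherited from one parent, because the other copy carries silencing marks set in the germ line. H19 is a long noncoding RNA read from the maternal copy. It is abundant in fetal tissues and falls after birth in many organs of mouse and human, and its first exon holds the hairpin from which miR-675 is cut. In mouse placenta miR-675 limits growth. MEST is read from the paternal copy and encodes a protein of the alpha/beta hydrolase fold, and miR-335 lies in one of its introns in human and mouse. In the horse gene table of RefSeq (assembly TB-T2T) the gene of miR-675 lies inside H19, a lncRNA on chromosome 12, and that of miR-335 inside MEST, a protein-coding gene on chromosome 4. H19 and MEST transcripts themselves were not analysed here.

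Annotated counts per library, in M (mega), ranged from 9.53 to 12.4 in Infant, 8.11 to 13.1 in Pre-puber, 3.96 to 6.04 in Puber, 2.18 to 4.62 in Adult and 1.48 to 2.26 in Sperm, so later groups had less depth. Levels are given in CPM, with TMM scaling of annotated counts, a relative measure set on the premise that most miRNAs do not move. Markers of meiotic and later germ cells (4 of 5 had an entry, none at 0 in any group) summed to 17.6 to 53.1 CPM in Infant, 45.1 to 3296 in Pre-puber, 11950 to 22810 in Puber and 40220 to 50440 in Adult. Pre-puber 14 stood apart from its group, with a germ cell sum of 3296 CPM against 45.1 in Pre-puber 3a and 80.4 in 3b. The single marker of gonadal soma and the 4 of striated muscle were not analysed here.

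In testis, miR-675 was high in Infant and Pre-puber libraries and low from puberty on. It stood at 96.2, 87.2 and 253.7 CPM in Infant 31a, 31b and 30, from 534, 731 and 2027 counts. The Pre-puber libraries 3a, 3b and 14 held 65.6, 127.5 and 14.0 CPM, from 972, 942 and 100 counts. The Pre-puber libraries 3a and 3b thus lay near the Infant range, while Pre-puber 14 lay near the pubertal and adult libraries. Puber 10, 11 and 19 held 13.7, 8.20 and 7.84 CPM, from 71, 38 and 41 counts. Adult 13, 20, 33 and 4 held 15.5, 13.0, 9.56 and 12.1 CPM, from 75, 27, 69 and 71 counts. Puber and Adult libraries overlapped, and every Infant library lay above all of them. Among the 274 annotated miRNAs, miR-675 took positions 86, 109, 142 and 141 by mean level in Infant, Pre-puber, Puber and Adult testis.

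miR-335 was the more abundant of the pair in all 17 libraries and was also highest in Infant. It stood at 618, 389 and 276 CPM in Infant 31a, 31b and 30, from 3432, 3263 and 2205 counts. Pre-puber 3a, 3b and 14 held 159, 264 and 189 CPM, from 2358, 1949 and 1347 counts. The Pre-puber libraries lay close together, and Pre-puber 14 did not stand apart for miR-335 as it did for miR-675. Puber 10, 11 and 19 held 89.0, 78.3 and 75.7 CPM, and Adult 13, 20, 33 and 4 held 55.1, 60.9, 118.5 and 71.1 CPM. All Infant and Pre-puber libraries lay above all Puber and Adult libraries, and within Adult the library 33 was the highest. By mean level miR-335 took positions 69, 85, 103 and 103 of 274 at the 4 stages in turn.

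**Figure D1:**
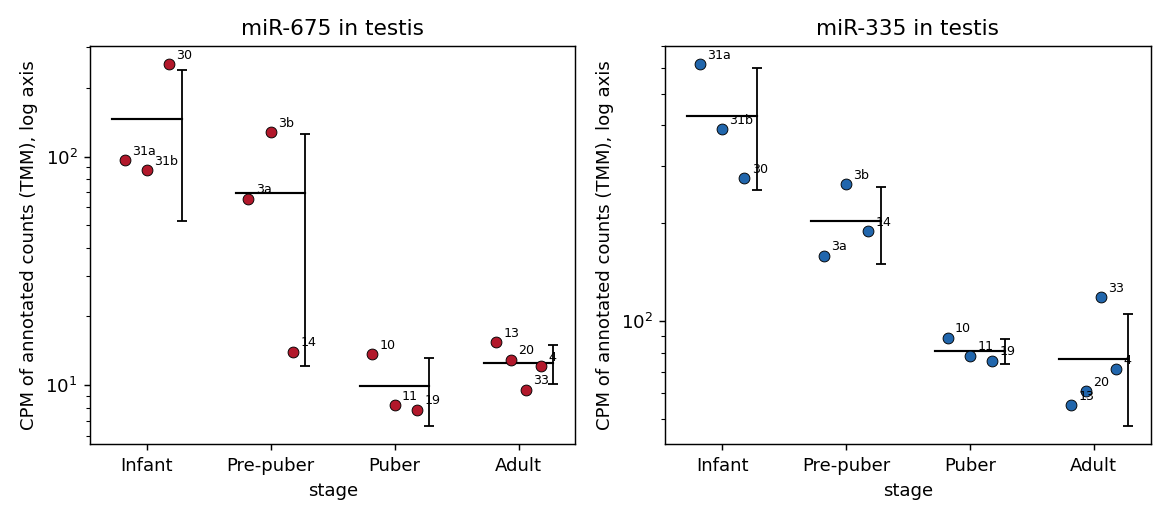
Level of miR-675 (left) and miR-335 (right) in CPM on a log axis, by testis stage; each point is a library with its number, lines are means and bars the SD (n = 3, 3, 3 and 4). Pre-puber 14 sits at 14.0 CPM for miR-675, near the Puber and Adult points, and at 189 CPM for miR-335, among its own group.

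The scatter between libraries of a stage differed between the members. The fitted biological coefficient of variation, which is the spread between libraries of a stage beyond counting error, was 55.4% for miR-675 and 36.8% for miR-335, against a median of 42.0% over all 184 miRNAs tested in testis. For miR-675 the SD was 64.3% of the mean in Infant and 82.3% in Pre-puber, and 33.0% in Puber and 19.5% in Adult. For miR-335 it was 40.7%, 26.5%, 8.66% and 37.8% at the same stages.

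Over the 4 testis stages both members changed by edgeR's quasi-likelihood F test with Benjamini-Hochberg adjustment over the 184 miRNAs tested. The adjusted p was 0.000632 for miR-675 and 0.000465 for miR-335. Of all miRNAs tested, 47.8% passed the same threshold of 0.05, so passing it is common in these data, and the members stood at positions 22 and 10 by p.

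Adult against Infant testis spans postnatal development, and both members fell. miR-675 averaged 12.5 ± 2.44 CPM in Adult (SD, n = 4) and 145.7 ± 93.6 CPM in Infant (n = 3), a log2 fold change of -3.54 ± 0.62 (approximate SE; edgeR adjusted p = 0.000409), or 11.6-fold lower. miR-335 averaged 76.4 ± 28.9 CPM in Adult and 428 ± 174 CPM in Infant, a log2 fold change of -2.48 ± 0.36 (edgeR adjusted p = 0.000161), or 5.59-fold lower. Neither member overlapped between Adult and Infant libraries, as was so for 50% of the miRNAs tested. Lower calls made up 25.5% of the tested miRNAs. By size of the fall, miR-675 was 5th and miR-335 12th of 184, and the median change of all tested miRNAs was -0.14.

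The falls in Adult kept their direction and call under every alternative run, and their size moved with the scaling and with 1 library. Without Infant 30 the log2 fold change of miR-675 was -2.89. With library totals in place of TMM it was -2.71 for miR-675 and -1.43 for miR-335, but the median of all miRNAs then stood at 0.82, and relative to that median the members were at -3.53 and -2.25, against -3.40 and -2.34 relative to the median with TMM. With all entries of the table in the fit, predicted hairpins included, the values were -5.34 and -4.17, and the median of all entries stood at 5.64.

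Puber against Infant gave a like picture, with the same Infant libraries on the other side. miR-675 averaged 9.90 ± 3.27 CPM in Puber (SD, n = 3) and 145.7 ± 93.6 CPM in Infant (n = 3), a log2 fold change of -3.88 ± 0.71 (edgeR adjusted p = 0.001). miR-335 averaged 81.0 ± 7.02 CPM in Puber and 428 ± 174 CPM in Infant, a log2 fold change of -2.40 ± 0.40 (edgeR adjusted p = 0.000749). In this comparison 15.2% of the tested miRNAs were called lower, and miR-675 and miR-335 were 2nd and 5th of 184 by size of the fall. Neither overlapped between the groups, as for 51.1% of the tested miRNAs. Without Infant 30 the value for miR-675 was -3.21, and with library totals that for miR-335 was -1.73, both still called. With all entries in the fit the values were -5.28 and -3.82.

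Comparisons of neighbouring stages gave no edgeR call for either member. In Pre-puber against Infant testis, miR-675 gave a log2 fold change of -1.08 ± 0.63 (edgeR adjusted p = 0.251) with overlapping groups. miR-335 gave -1.07 ± 0.38 (edgeR adjusted p = 0.0608), with 204 ± 54.0 CPM in Pre-puber and 428 ± 174 CPM in Infant and no overlap, where 35.9% of the tested miRNAs did not overlap and 23.9% were called. In Puber against Pre-puber, the comparison across puberty, miR-675 gave -2.80 ± 0.68 (edgeR adjusted p = 0.0652) and miR-335 -1.33 ± 0.39 (edgeR adjusted p = 0.0815). Neither overlapped between the groups, as for 26.6% of the tested miRNAs, and they were 3rd and 7th of 184 by size of the fall. edgeR called 1.09% of the tested miRNAs in this comparison.

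The calls across puberty depended on the setting and on single libraries. Without Pre-puber 14, Puber against Pre-puber gave -3.26 for miR-675 (edgeR adjusted p = 0.000407) and -1.37 for miR-335 (edgeR adjusted p = 0.0438), where edgeR called 30 miRNAs in all, against 2 with that library kept. Without Pre-puber 3b it gave -2.0 (edgeR adjusted p = 0.16) and -1.09 (edgeR adjusted p = 0.243). DESeq2, with all libraries, called both members, at -2.81 (adjusted p = 0.00146) and -1.27 (adjusted p = 0.0262), among 16 calls in all.

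For Pre-puber against Infant, the log2 fold change of miR-675 was called under none of the alternatives run. It was -0.56 without Pre-puber 14, -0.42 without Infant 30 and -0.45 with all entries in the fit, but -1.82 without Pre-puber 3b (edgeR adjusted p = 0.0658) and -1.71 with libraries sharing a title number summed. That of miR-335 was -1.01 without Pre-puber 14, not called, and -1.32 without Infant 30 (edgeR adjusted p = 0.0314). DESeq2 with all libraries called it too, at -1.03 (adjusted p = 0.0397).

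Adult against Puber testis gave no edgeR call for either member, with a log2 fold change of 0.34 ± 0.61 for miR-675 (edgeR adjusted p = 0.819) and -0.08 ± 0.36 for miR-335 (edgeR adjusted p = 0.939). No miRNA was called in this comparison by edgeR (0%), 34 had an unadjusted p under 0.05, and DESeq2 called 10 and limma-voom 0. Adult against Pre-puber called both members lower, at -2.46 ± 0.60 for miR-675 (edgeR adjusted p = 0.0112) and -1.41 ± 0.35 for miR-335 (edgeR adjusted p = 0.0126), where 15.2% of the tested miRNAs were called lower. The groups overlapped for miR-675 and not for miR-335, and 34.2% of the tested miRNAs did not overlap. Both calls ended without Pre-puber 3b (-1.68 and -1.19, both with adjusted p = 0.0581). With all entries in the fit the values were -4.89 and -3.56. The call of miR-335 also ended without Adult 13 (-1.36), without Adult 4 (-1.52) and with library totals in place of TMM (-0.88).

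**Figure D2:**
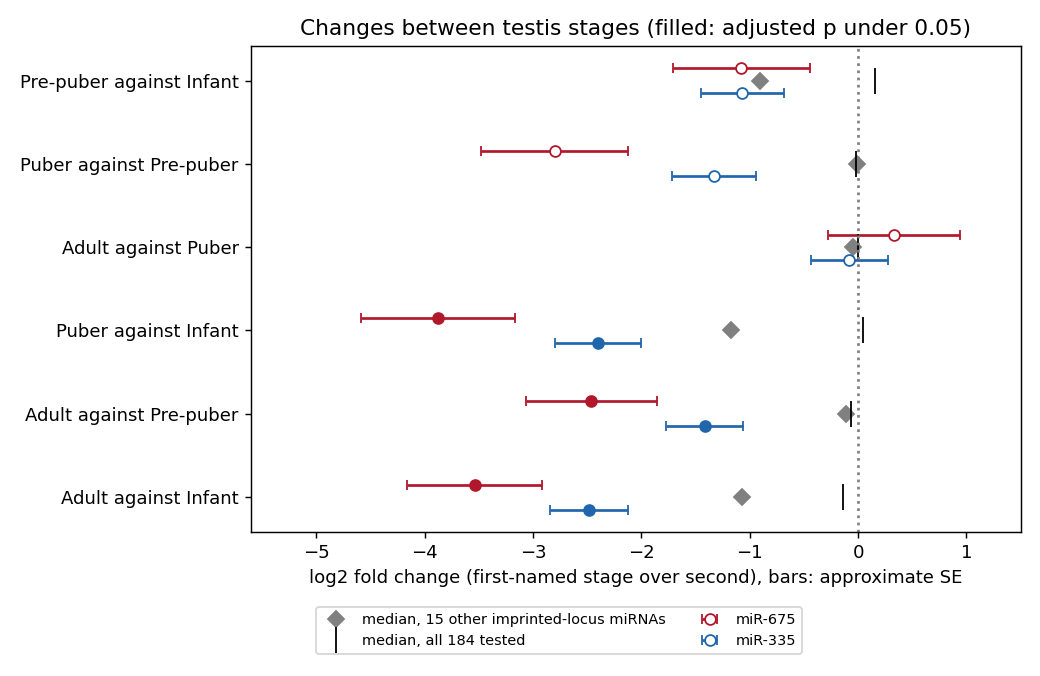
Log2 fold change of miR-675 (upper point of each pair) and miR-335 (lower point) for 6 comparisons of testis stages, with approximate SE; filled points passed the threshold, diamonds are the median of 15 other miRNAs of imprinted loci and ticks the median of all 184 tested. Both members lie left of both medians in every comparison except Adult against Puber.

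Summed marker miRNAs of some other cell types also differed between the stages, while those of blood and endothelium overlapped between Adult and Infant. Stromal and smooth muscle markers (3 of 5 had an entry, none at 0) summed to 14970 to 18820 CPM in Adult and 32330 to 51210 CPM in Infant, in the direction of the members. Between these stages they summed to 31500 to 37770 CPM in Pre-puber and 23660 to 31470 CPM in Puber, and germ cell markers ran the other way, as given above. Blood cell markers (4 of 6 had an entry, none at 0) summed to 1061 to 4798 CPM in Adult and 1064 to 6507 CPM in Infant. The highest blood sums fell on Infant 30 (6507 CPM) and Adult 33 (4798 CPM). Infant 30 had the most miR-675 of all libraries but the least miR-335 of the Infant libraries (276 CPM). Adult 33 had the most miR-335 of the Adult libraries but the least miR-675 (9.56 CPM). Pre-puber 14 had the highest blood sum of its stage (2749 CPM) and the least miR-675 (14.0 CPM). The endothelial marker miR-126-5p stood at 317 to 610 CPM in Adult and 217 to 424 CPM in Infant, and miR-205, the one epithelial marker of 6 with an entry, at 1.54 to 2.35 CPM in Adult and 3.50 to 6.12 CPM in Infant. The part of these cell types in the falls of miR-675 and miR-335 was not tested.

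Sperm separated the members. miR-675 had 0 counts in each of the 4 Sperm libraries, against 75, 27, 69 and 71 counts in Adult 13, 20, 33 and 4. In the fit of these 8 libraries the Adult level of miR-675 was 9.41 ± 2.35 CPM (SD, n = 4), and it passed the filter on low counts through its Adult counts alone. edgeR called it lower in Sperm with that filter (adjusted p = 3.17e-08) and with no filter (adjusted p = 8.97e-08). At the pooled Adult level of 9.03 CPM, on TMM-scaled library sizes, Sperm 1, 2, 3 and 4 would have held 12.4, 11.1, 7.33 and 6.83 counts. A count of 0 allows up to 3 counts, which over the TMM-scaled library sizes of the Sperm group is 0.721 CPM, so miR-675 was at least 12.5-fold lower in Sperm than in Adult testis. Without TMM, at the Adult share of annotated counts, the Sperm libraries would have held 38.0, 32.2, 24.9 and 26.2 counts, and the limit was at least 40.4-fold, so the bound moves with the scaling. Per library the limit was 2.19 to 3.97 CPM on TMM-scaled sizes, and such limits cover counting error only.

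Of all 274 annotated miRNAs, 79 (28.8%) had no count in any Sperm library. Among the 162 tested, where a miRNA counted in Sperm passes the filter more easily than one at 0 there, 5 had none. Beside miR-675, at 242 Adult counts the least abundant in Adult, these were miR-514a, miR-509b, miR-508-5p and miR-542-5p, with 7418, 726, 514 and 272 Adult counts, named after their values were seen. The first 3 belong to a family that is X-linked and expressed in testis in human and mouse. Of 23 other annotated miRNAs within a factor of 2 of miR-675 in Adult, 2 were at 0 in all Sperm libraries.

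miR-335, in contrast, rose in Sperm. It stood at 497, 810, 297 and 290 CPM in Sperm 1, 2, 3 and 4, from 680, 991, 241 and 219 counts, and at 42.5, 41.1, 80.4 and 61.4 CPM in Adult 13, 20, 33 and 4, from 267, 127, 856 and 416 counts. In CPM all Sperm libraries lay above all Adult libraries, where 74.7% of the 162 tested miRNAs did not overlap, and Sperm 2 was the highest. The means were 473 ± 244 CPM in Sperm and 56.4 ± 18.5 CPM in Adult (SD, n = 4 each), a log2 fold change of 3.07 ± 0.53 (edgeR adjusted p = 6.97e-07), or 8.39-fold higher. Calls were common here: 81.5% of the 162 tested miRNAs were called, 39.5% lower and 42% higher, and miR-335 was 32nd by size of the rise. With most miRNAs called, the premise of TMM that most do not move is in doubt here, and the 8.39-fold size rests on it. By position, which needs no scaling, miR-335 stood 60th of 274 in Sperm and 103rd in Adult. A position also climbs when other miRNAs fall, and 195 annotated miRNAs had counts in Sperm against 221 in Adult.

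The size of the rise of miR-335 depended on the scaling and its direction and call did not. With library totals only, the log2 fold change was 1.41 (edgeR adjusted p = 0.0285), while the median of all tested miRNAs stood at -1.61, so miR-335 lay 3.02 above that median, against 3.01 with TMM. It was 2.05 with all entries of the table in the fit, 2.29 with all 17 libraries fitted together and 2.38 by DESeq2. Without Adult 20 it was 2.37, still called.

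**Figure D3:**
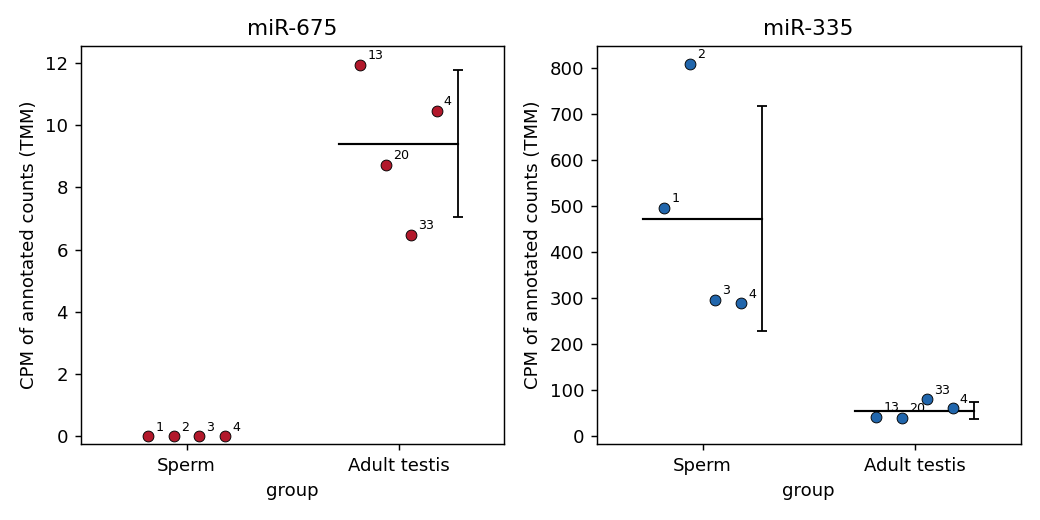
Level of miR-675 (left) and miR-335 (right) in CPM of the joint fit, in Sperm and Adult testis; points are libraries with their numbers, lines are means and bars the SD (n = 4 each). miR-675 is at 0 in all 4 Sperm libraries, and miR-335 lies between 290 and 810 CPM in Sperm and between 41.1 and 80.4 CPM in Adult.

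Sperm and testis also differed in preparation, since per the labels' protocols sperm RNA had a shorter DNase step and a phenol:chloroform purification, so the sample type and its extraction cannot be told apart. Germ cell markers (4 of 5 with an entry) summed to 105400 to 360100 CPM in Sperm and 28820 to 38940 CPM in Adult, with the highest sum in Sperm 2, as for miR-335. Stromal markers (3 of 5) summed to 65.8 to 152 CPM in Sperm and 10090 to 14700 CPM in Adult, in the direction of miR-675. The epithelial marker miR-205 (1 of 6) stood at 337.4 to 1191 CPM in Sperm and 1.27 to 1.60 CPM in Adult, in the direction of miR-335. Blood markers (4 of 6) summed to 1466 to 3717 CPM in Sperm and 728 to 3256 CPM in Adult, and miR-126-5p stood at 38.2 to 52.9 CPM in Sperm and 215 to 471 CPM in Adult. No marker with an entry was at 0 in Sperm or Adult, and the part of these cells in the results was not tested.

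On the authors' deposited scale of RPM over all entries of a library, which covers all 5 groups, the order of the levels differed between the members. miR-675 ran from Infant (81.2 ± 68.5 RPM) through Pre-puber (49.6 ± 38.3), Adult (12.1 ± 2.93) and Puber (7.69 ± 1.35) to 0 in Sperm. Neighbours in that order overlapped between Infant and Pre-puber and between Pre-puber and Adult, while Adult (9.43 to 16.0 RPM) and Puber (6.33 to 9.03 RPM) did not overlap on this scale and did in CPM. miR-335 ran from Sperm (210 ± 135 RPM) and Infant (208 ± 41.2) through Pre-puber (144 ± 28.8) and Adult (75.7 ± 37.1) to Puber (64.5 ± 8.55), and each neighbour in that order overlapped the next. The Sperm libraries, at 102 to 400 RPM, enclosed the Infant range of 174 to 254 RPM. Sperm 3 (124 RPM) and Sperm 4 (102 RPM) lay below Adult 33 (128 RPM) for miR-335. Sperm and Adult thus overlapped on this scale and did not in CPM.

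The count ratio of miR-675 to miR-335 needs no scaling between libraries. It was 0.156, 0.224 and 0.919 in Infant 31a, 31b and 30, and 0.412, 0.483 and 0.0742 in Pre-puber 3a, 3b and 14. It was 0.154, 0.105 and 0.104 in Puber 10, 11 and 19, 0.281, 0.213, 0.0806 and 0.171 in Adult 13, 20, 33 and 4, and 0 in every Sperm library. The members came close to equal counts in Infant 30 alone, and Pre-puber 14 had the lowest ratio of the testis libraries. With 0.5 added to each count, the log2 ratio averaged -2.55 ± 0.77 in Adult (SD, n = 4) and -1.65 ± 1.35 in Infant (n = 3), and an exact two-sided permutation test gave p = 0.40, adjusted p = 0.56 over 7 comparisons. In Puber it averaged -3.06 ± 0.32 (n = 3), below all Infant libraries, with an exact permutation p = 0.10 against Infant, the smallest that 3 against 3 libraries allow (adjusted p = 0.35). With groups of 3 and 4 libraries no adjusted p over 7 comparisons could fall under 0.05, so these tests do not settle whether miR-675 fell more than miR-335. The difference in mean log2 ratio moved with Infant 30. It was -0.90 for Adult against Infant and -0.13 without that library, and -1.41 for Puber against Infant and -0.64 without it.

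In Sperm the log2 ratio averaged -9.76 ± 1.08 against -2.55 ± 0.77 in Adult (SD, n = 4 each), with no overlap. The exact two-sided permutation p was 0.0286, the smallest that 4 against 4 libraries allow, and the adjusted p over 7 comparisons was 0.20. With miR-675 at 0 in Sperm, this mean rests on the added 0.5 and on the counts of miR-335. The other 4 comparisons gave exact permutation p-values of 0.80 for Pre-puber against Infant, 0.571 for Adult against Pre-puber, 0.40 for Puber against Pre-puber and 0.314 for Adult against Puber, with adjusted values from 0.56 to 0.80.

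**Figure D4:**
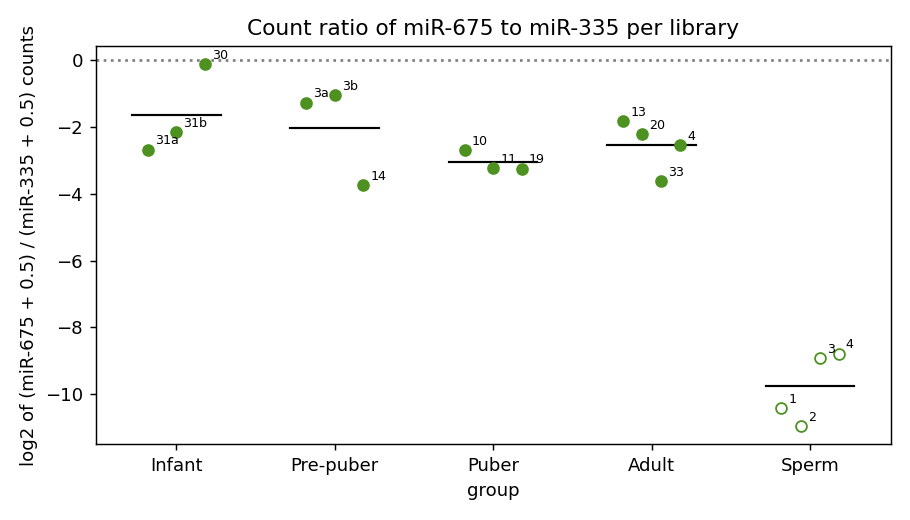
Log2 of the count ratio of miR-675 to miR-335, with 0.5 added to each count, by group; points are libraries with their numbers, lines are means, and open points have 0 counts of miR-675. Testis libraries spread between -3.75 and -0.12 and overlap across stages, and Sperm libraries lie at -8.78 or lower.

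Over the 13 testis libraries the log2 CPM of the members had a Pearson correlation of 0.81, the 9th highest of 183 for miR-675 and the 11th for miR-335, and 0.83 without Infant 30. The libraries share their stages: for deviations from the stage means the correlation was -0.14. These values describe these libraries, which also share depth and scaling.

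The 5 miRNAs most like miR-675 over the 13 testis libraries were miR-411 (r = 0.872), miR-491-5p (0.87), miR-485-5p (0.863), miR-299 (0.863) and miR-135a (0.861). Of these, miR-411, miR-485-5p and miR-299 come from the imprinted DLK1-DIO3 region, which gave 15 of the 184 miRNAs tested in testis. miR-299 stood at 44.6 ± 5.73 CPM in Adult (SD, n = 4) and 320 ± 42.5 CPM in Infant (n = 3), and held 2 counts in Sperm in all. miR-411 stood at 4105 ± 98.1 CPM in Adult and 17750 ± 3250 CPM in Infant, with 407 to 1043 counts in each Sperm library. miR-491-5p, at 4.38 ± 0.46 CPM in Adult and 7.79 ± 1.41 CPM in Infant, was the least abundant of the 5 and had 0 counts in Sperm. It was not called in Adult against Infant (edgeR adjusted p = 0.0732), and its mean was highest in Pre-puber, at 8.73 ± 2.04 CPM. miR-135a, alike to both members, stood at 47.4 ± 18.4 CPM in Adult and 890 ± 361 CPM in Infant.

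The 5 most like miR-335 were miR-361-5p (r = 0.927), miR-135a (0.917), miR-186 (0.913), miR-26a (0.911) and miR-181a (0.876), none of them in the list of imprinted loci. miR-361-5p stood at 170.5 ± 55.9 CPM in Adult and 700 ± 185 CPM in Infant (SD, n = 4 and 3). It held 19 to 81 counts per Sperm library, where miR-335 held 219 to 991. miR-135a held 436 to 2299 counts per Sperm library, miR-186 7896 to 33019, miR-26a 45567 to 117418 and miR-181a 1968 to 3793. miR-26a stood at 48970 ± 10600 CPM in Adult and 260800 ± 166000 CPM in Infant. miR-186 changed least of the 5, with 2395 ± 276 CPM in Adult and 3883 ± 830 CPM in Infant.

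**Figure D5:**
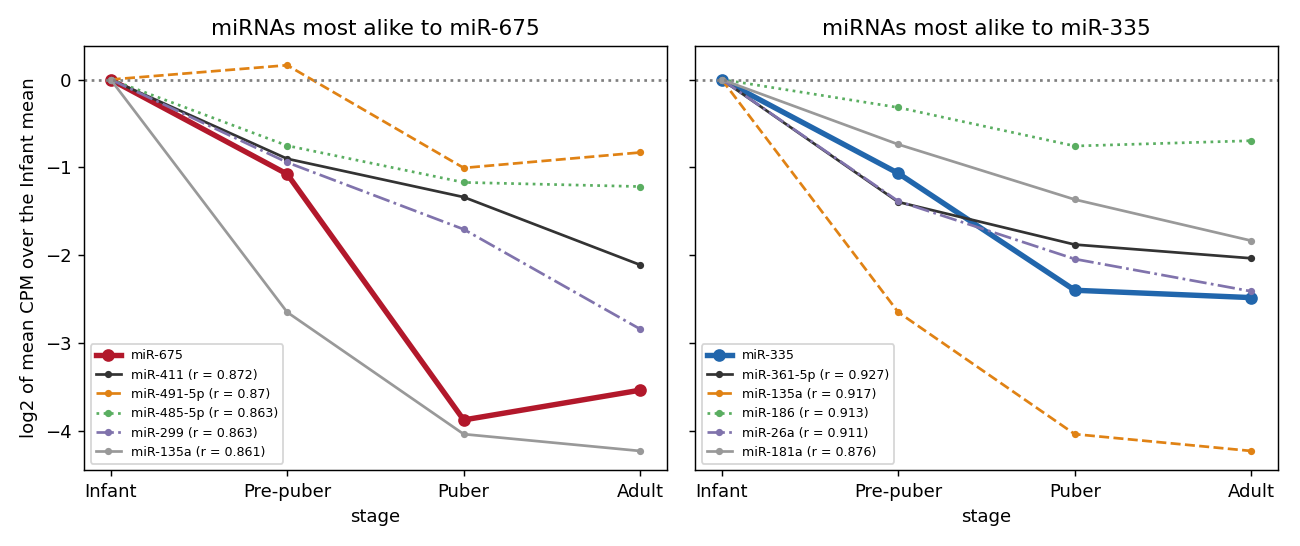
Mean CPM by testis stage, as log2 over the Infant mean, for miR-675 (left, thick line) and miR-335 (right, thick line) and the 5 miRNAs with the highest correlation to each over 13 libraries (r in the legend). Lines start at 0 by construction, and miR-675 lies lower at Puber than all of its 5 but miR-135a.

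Other miRNAs of imprinted loci were described as a list: 17 had an entry, all from the DLK1-DIO3 region, a large cluster read from the maternal copy, and 15 were tested in testis. In Adult against Infant 9 of 15 were called lower, 1 higher and 5 not called by edgeR, where 25.5% of all 184 tested were called lower and 26.1% higher. The median log2 fold change was -1.07 against -0.14 over all tested, and 1 of the 15 lay below miR-675 and 2 below miR-335. With library totals 4 of the 15 were called lower and 2 higher (median -0.21), where 21 of all 184 were called lower and 84 higher. Without Infant 30, Adult 13 or Adult 33 in turn 5 of the 15 were called lower. In these fits 92, 75 and 85 miRNAs were called in either direction, against 95 with all libraries. With all entries in the fit 13 of the 15 were called lower and none higher, where 155 of all 916 entries were called lower and 677 higher. In Puber against Infant 6 of 15 were called lower by edgeR, against 15.2% of all tested (median -1.17 against 0.05), and all 15 lay above miR-675 and miR-335 in log2 fold change. The count called lower was 1 with library totals (11 of all 184) and 2 without Infant 30, where 67 miRNAs were called in either direction. Without a Puber library 16 of the list were tested. Of these, 2 were called lower without Puber 11 or Puber 19, and 3 without Puber 10. In these fits 60, 62 and 61 miRNAs were called in either direction, against 67 with all libraries. Of 15, 4 were called lower with libraries sharing a title number summed (21 of all 182) and 13 with all entries in the fit (129 of all 916). In Pre-puber against Infant 3 of 15 were called lower by edgeR, against 8.15% of all tested (median -0.90 against 0.16). Here 4 of the 15 lay below both miR-675 and miR-335 in log2 fold change. The count called lower was 1 with library totals (5 of all 184) and in a fit of the 2 groups alone (11 of all 168). It was also 1 without Infant 30 or Pre-puber 14, where 42 and 33 miRNAs were called in either direction, against 44 with all libraries. It was 0 with all entries in the fit (15 of all 916) and with libraries sharing a title number summed (4 of all 182). Across puberty, Puber against Pre-puber, none of the 15 was called by edgeR (median -0.01 against -0.02 over all tested). Of all tested, edgeR called 2 miRNAs, DESeq2 16 and limma-voom 19. In this edgeR fit the log2 fold changes of the 15 ran from -0.76 to 0.93, all above those of miR-675 and miR-335. With all entries in the fit 10 of the 15 were called lower, as were 124 of all 916 entries. In Adult against Pre-puber 2 of 15 were called lower by edgeR, near the 15.2% of all tested (median -0.11 against -0.07). Here 3 of the 15 lay below miR-335 in log2 fold change and none below miR-675. With all entries in the fit 12 were called lower, as were 192 of all 916 entries. With library totals 1 was called lower (14 of all 184), and the median of the 15 turned to 0.29. In Adult against Puber edgeR called none of the 15. DESeq2 called 1 lower (8 of all 184) and a fit of the 2 groups alone 2 (14 of all 176). Without Puber 19 edgeR called 2 of 16 lower, and without Adult 20 it called 1 of 15, where 7 miRNAs were called in all each time. Of all 184 miRNAs, 34 had an unadjusted edgeR p under 0.05.

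The most abundant of the list were miR-379, miR-411 and miR-409-5p. miR-379 stood at 8137 ± 5981 CPM in Adult and 30360 ± 1769 CPM in Infant (log2 fold change -1.90, edgeR adjusted p = 0.0136). miR-411 fell by 2.11 on the log2 scale in the same comparison (edgeR adjusted p = 6.22e-05). Both stayed called in this comparison under every alternative run, at -1.13 for miR-379 and -1.20 for miR-411 with library totals, -3.70 and -3.91 with all entries in the fit, and -2.56 for miR-379 without Adult 20. miR-409-5p rose, at 2114 ± 416 CPM in Adult and 828.5 ± 484 CPM in Infant (log2 fold change 1.35, edgeR adjusted p = 0.0325), but with all entries in the fit its log2 fold change was -0.38 and not called. Its call also ended with upper quartiles (1.01), with libraries sharing a title number summed (1.21), and without Infant 31a (1.24), Infant 31b (1.11) or Adult 20 (1.19). In Sperm against Adult, 9 of 13 tested members of the list were called lower and 2 higher by edgeR. Of all 162 tested, 39.5% were called lower and 42% higher (median -3.46 for the list against 0.06). With TMM the highest log2 fold change of the 13 was 2.42, below the 3.07 of miR-335. With library totals none of the 13 was called higher and 9 lower, where 36 of all 162 were called higher and 86 lower. miR-379 stood at 189 ± 52.6 CPM in Sperm and 5919 ± 3863 CPM in Adult, and miR-409-5p at 51.7 ± 13.2 CPM in Sperm and 1572 ± 292 CPM in Adult (SD, n = 4 each).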

How the data were processed

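The deposited table held 1763 entries with whole read counts and RPM values for 17 libraries. The deposited RPM values equalled the count over the column total, scaled to RPM, within 0.005. The submitters' processing notes name Trimmomatic and EquCab 3.0, and the aligner and counting program are not given in the sources used here. Each column was given to the sample whose title holds its number. For the number 4, held by Adult and Sperm, the prefix se was taken as sperm, as on columns 1 to 3. A further 2 columns of totals were not used. Of 302 annotated entries, the one with the most counts was kept for each of 274 mature miRNAs.

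Comparisons used edgeR 4.0.16 (quasi-likelihood F tests, R 4.3.3) on these counts after filterByExpr (minimum count 10) and TMM, with Benjamini-Hochberg adjustment over all miRNAs tested and a threshold of 0.05. The 13 testis libraries were fitted together (184 tested), and Sperm with Adult in 8 libraries (162 tested). Each fit has its own scaling, so the CPM of Adult libraries differ between them. SEs were derived from F and are approximate. Correlations used log2 CPM with a prior count of 2. Ratios used exact permutation tests. Every pair of libraries of a group differed by more than sampling noise in a chi-square statistic, at least 329.4 per degree of freedom. The edgeR fits were also run on counts simulated with the spread fitted to these data, as a check of the code only. Alternatives were DESeq2 1.42.0, limma-voom 3.58.1, upper quartiles, library totals, no filter, all entries, other sets of libraries, and leaving out each library. Named beside the members are the 5 miRNAs most correlated with each and the 3 most abundant of the imprinted list. The members, lists and rules were chosen with earlier results of these data known. No mature sequences were used here.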

Additional observations from a re-analysis of the deposited data

How the results depend on the processing

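Over the 4 stages, in Adult against Infant, Puber against Infant and Sperm against Adult, both members kept direction and call under every alternative run. For miR-675 in Sperm against Adult the direction could not turn, because its count was 0 in every Sperm library. No paired analysis was possible because the groups compared share at most 1 replicate number. For Puber against Pre-puber, miR-675 became called by DESeq2 (-2.81), with upper quartiles (-3.12), library totals (-2.71), no filter (-3.05) and all entries (-4.83), and miR-335 by DESeq2 (-1.27), limma-voom (-1.30) and with all entries (-3.22). Leaving out 1 library gave -3.26 to -2.0 and -1.46 to -1.09, and both were called without Pre-puber 14. For Pre-puber against Infant, DESeq2 called miR-335 (-1.03), and leaving out 1 library gave -1.32 to -0.69, called without Infant 30. For Adult against Pre-puber, leaving out 1 library gave -2.94 to -1.68 (miR-675) and -1.71 to -1.19 (miR-335), and library totals ended the call of miR-335 (-0.88). In Adult against Puber, where neither member was called, the sign of miR-335 turned with DESeq2 (0.027), library totals (0.30), no filter (0.061) and a fit of the 2 groups alone (0.0080), and over left-out libraries it ran from -0.20 to 0.16. That of miR-675 turned with all entries (-0.059). The causes were not tested. The log2 ratio of miR-675 to miR-335 ran from -0.88 to 0.49 for Pre-puber against Infant over left-out libraries, from -1.41 to -0.13 for Adult against Infant and from -1.92 to -0.64 for Puber against Infant, and was -9.28 from summed counts for Sperm against Adult.

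Counts of called entries moved most with predicted hairpins in the fit: 606 for Pre-puber against Infant (44 without them), 198 for Puber against Pre-puber (2), 832 for Adult against Infant (95), 805 for Puber against Infant (67), 407 for Adult against Pre-puber (51) and 507 for Sperm against Adult (132). With hairpins 916 entries were tested in testis and 783 in Sperm with Adult, against 184 and 162 without them. These counts thus have unlike totals. The other alternatives gave 26 and 29 for Pre-puber against Infant in a fit of these groups alone and with libraries sharing a title number summed. For Puber against Pre-puber they gave 16 (DESeq2), 19 (limma-voom), 7 (upper quartiles), 9 (library totals), 0 in a fit of these groups alone and with summed libraries, and 0 to 30 over left-out libraries. For Adult against Pre-puber they gave 33 in a fit of these groups alone, 29 with summed libraries, and 25 to 70 over left-out libraries. For Adult against Puber they gave 10 (DESeq2), 1 (library totals), 19 in a fit of these groups alone, and 0 to 7 over left-out libraries. Low depth in Sperm limits miR-675, where 0 counts allow up to 3 per library.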
